A study of Homo sapiens with 2 samples.

Results

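Parent domains are contact domains that hold at least 1 smaller listed contact domain within their ends. They were picked from the deposited list of domains of HEK293T cells by position alone, on autosomes, with ends that coincide counted as held. Of 3751 autosomal domains, 242 were parents (6.45%, 95% Wilson interval 5.71 to 7.28%). They held 284 different domains, and 3237 domains were neither parent nor held. Chromosome X, with 94 domains and 4 parents, was left out by the rule.

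The study mapped chromatin contacts in HEK293T cells, an established line of human embryonic kidney origin that expresses large T antigen of SV40, by in situ Hi-C. Cells were crosslinked with 1% formaldehyde, chromatin was cut with MboI and ligated, and joined fragments were sequenced. Its 2 libraries form 1 group, labelled as replicates, of cells with no treatment other than crosslinking, and the labels do not state whether 1 or several cultures were used. The titles of these libraries say HEK293 rather than HEK293T. The 3 deposited tables (domains, loops and compartment scores, in hg19) describe the group as a whole. There is thus no replicate error and no test below, and every comparison is a description of 1 map of 1 cell line. Intervals on shares are 95% Wilson intervals. They cover counting error only and treat domains as independent, which neighbouring and nested domains are not. Total contacts per library are unknown here, and depth is seen only in the contacts counted at each loop.

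A contact domain is a stretch of chromosome whose parts meet one another more often than they meet the sequence beside it. In the widely held model, cohesin draws chromatin into a growing loop and halts at bound CTCF, so that a domain's ends meet as a point of high contact at its corner. Domains lie within domains, and the inner ones are often called sub-domains. Compartments are a coarser pattern, in which active and inactive chromatin each favour their own kind.

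Nesting in this list was shallow. Of the 242 parents, 192 held 1 domain, 43 held 2, 5 held 3 and 2 held 4. A direct child is a held domain with no other listed domain between it and the parent. By that count 199 parents had 1 direct child, 42 had 2 and 1 had 3, which makes 286 parent and child pairs. Nesting of 3 levels, a parent that holds a domain which itself holds one, was found for 12 parents, and no parent had more. The 12 middle domains are both parent and child, so 230 parents were outermost. There were 2 held domains, on chromosomes 6 (5260001 to 5380000) and 14 (75775001 to 75955000), with 2 direct parents each, which overlapped. Together the parents covered 97.9 Mb.

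Parents were longer than other domains, as holding another domain requires. Their median length was 317.5 kb (quartiles 255 and 480 kb, range 135 to 1970 kb), against 220 kb for the 3509 domains that held none. The held domains had a median length of 145 kb (quartiles 105 and 261.25 kb, range 60 to 1200 kb). The share of domains that were parents did not simply grow with length. It was 0 of 397 up to 100 kb, 23 of 1237 (1.86%, 1.24 to 2.78%) at 100 to 200 kb and 138 of 1186 (11.6%, 9.93 to 13.6%) at 200 to 400 kb. Above that it was 54 of 606 (8.91%, 6.89 to 11.5%) at 400 to 700 kb, 16 of 183 (8.74%, 5.45 to 13.7%) at 700 to 1000 kb and 11 of 142 (7.75%, 4.38 to 13.3%) above 1000 kb. The intervals of the 4 classes above 200 kb overlap, so no order among them is shown.

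The median child took up 48.3% of its parent (quartiles 35.5 and 64.97%). The range ran from 14.9%, a 70 kb child in a 470 kb parent on chromosome 6 (110835001 to 111305000), to 90.9%, an 850 kb child in a 935 kb parent on chromosome 13 (73360001 to 74295000). Direct children together covered a median of 59.9% of each parent.

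Most direct children lay near an end of the parent, within 25 kb in 219 of 286 pairs (76.6%). Of 286 direct children, 138 (48.3%, 42.5 to 54.0%) had an end within 10 kb of an end of the parent, 65 at the start and 73 at the end in chromosome coordinates, and 130 of 242 parents had such a child. In 47 pairs an end fell in the very same 5 kb bin boundary. The nearer offset had a median of 15 kb (quartiles 5 and 25 kb), while the farther offset had a median of 135 kb (quartiles 85 and 210 kb). Only 27 children lay more than 50 kb from both ends. No side was favoured, since the midpoint of 144 children (50.3%, 44.6 to 56.1%) was in the first part of the parent before its centre. The farther offset was never below 50 kb in this list, so no listed child shared both ends of its parent within 10 kb. Whether the caller bars such pairs is stated in no source used here. End sharing within 10 kb was similar in the 3 smaller size groups of children, at 31 of 68 up to 35% of the parent, 33 of 82 from 35 to 50% and 30 of 65 from 50 to 65%. It was 44 of 71 (62.0%, 50.3 to 72.4%) above 65%, where less room is left, and it was lower, 38.4%, for parents of 400 kb or more.

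**Figure D1:**
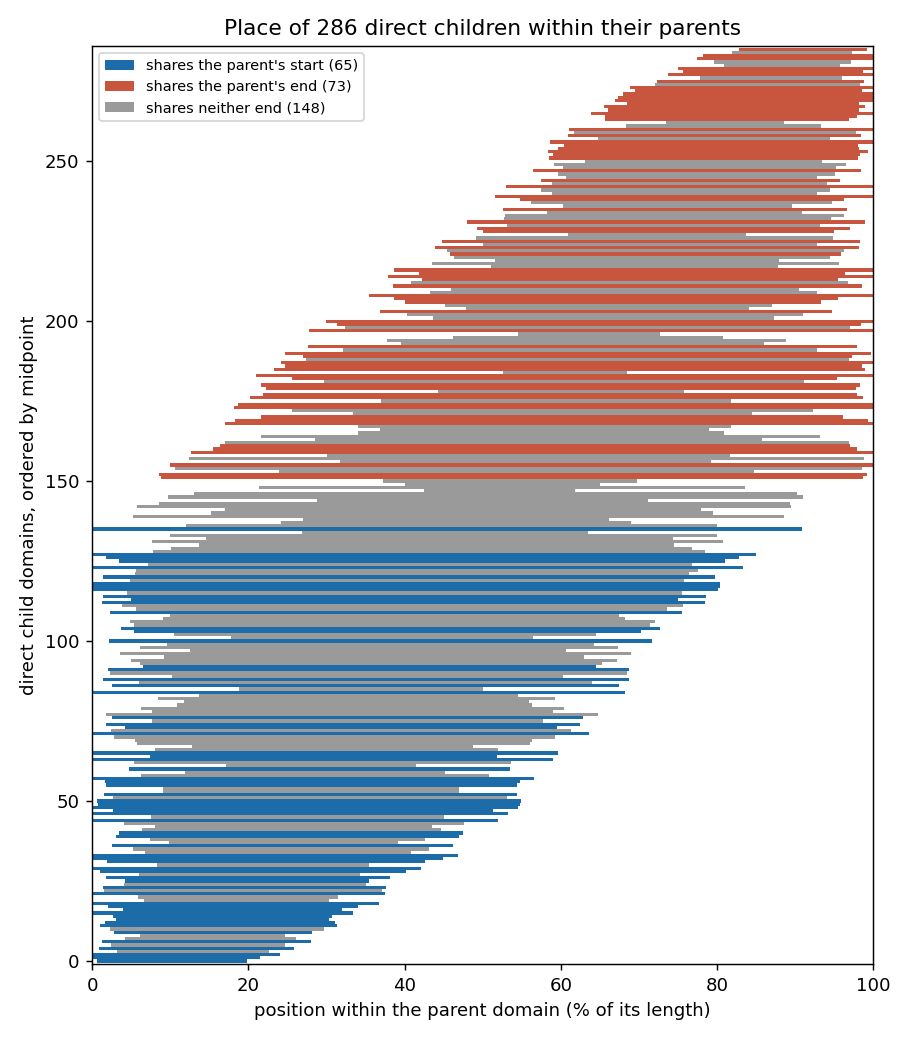
Each bar is 1 of 286 direct child domains, drawn at its place in its parent, whose length is scaled to 100% on the horizontal axis, and ordered by midpoint. The 65 blue bars share the parent's start and the 73 red bars its end within 10 kb, while the 148 grey bars share neither.

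More than 1 direct child was held by 43 parents, with 44 neighbouring pairs of children. The gap between neighbours was 0 to 10 kb in 21 pairs and longer in 21, and 2 pairs overlapped, with a median gap of 10 kb and a longest of 370 kb. The children of these parents covered a median of 86.6% of the parent (quartiles 74.3 and 91.5%), against 54.2% for parents with 1 direct child. In 8 of the 43, the children also met both ends of the parent within 10 kb. Median lengths of the parents were close, at 330 and 315 kb.

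The 5 parents that held the most domains each had 3 levels. The 760 kb parent on chromosome 9 (81785001 to 82545000) held 4 domains. Its direct children spanned 395, 120 and 190 kb, and they began 0, 400 and 570 kb from the parent's start. The first of them held an 85 kb domain that began at the same position, and the last ended with the parent. The 305 kb parent on chromosome 1 (23295001 to 23600000) also held 4 domains and was covered to 100% by its 245 and 80 kb children, which overlapped by 20 kb. The other 3, each with 3 held domains, lay on chromosome 17 (46225001 to 46690000, 465 kb), chromosome 4 (173915001 to 174335000, 420 kb) and chromosome 1 (94490001 to 94885000, 395 kb). In 3 of these 5 parents a child started in the same bin as the parent. The 2 remaining of the 5 longest parents with 3 levels lay on chromosome 13 (72480001 to 73215000, 735 kb) and chromosome 7 (148195001 to 148675000, 480 kb).

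The 5 longest parents spanned 1600 to 1970 kb, on chromosomes 13 (37600001 to 39570000), 6 (128025001 to 129775000), 1 (220975001 to 222635000 and 29550001 to 31185000) and 2 (129085001 to 130685000). The first held 1 child of 540 kb, which began 45 kb from its start and left 1385 kb of the parent with no listed domain. The last held 1 child of 1200 kb, which ended 5 kb from its end. Children covered 22.3 to 75% of these 5 parents. None of the 11 parents above 1000 kb had a loop at its corner (0%, 0 to 25.9%), against 9 of 131 other domains of that length (6.87%, 3.66 to 12.5%).

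The caller's score per domain, whose meaning no source used here gives, was more often higher in the parent than in the child. Of 286 direct children, 101 (35.3%, 30.0 to 41.0%) scored above their parent, and the median difference, child minus parent, was -0.10 (quartiles -0.29 and 0.09). Counted by parent, 153 of 242 scored above each of their direct children, 79 scored below each of them, and 89 (36.8%, 31.0 to 43.0%) scored below the best. Parents had a median score of 1.25 (quartiles 1.03 and 1.46), held domains 1.13 (1.00 and 1.30) and domains that were neither 1.20 (1.04 and 1.40). These sets differ in length, and the score varied with length. Among domains that were neither, its median was 1.07 up to 100 kb and 1.24 at 100 to 200 kb. It was 1.27 at 200 to 400 kb and 1.19 at 400 to 700 kb. The part of length in the difference between parent and child was not tested. Large drops were more frequent than large gains, with 39 children lower by more than 0.5 and 4 higher by more than 0.5. Of 138 children with a shared end, 48 (34.8%) scored above the parent, and of 148 without, 53 (35.8%). The median difference was -0.06 with a shared end and -0.14 without.

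The order turned with parent length. The child scored higher in 4 of 24 pairs with parents of 100 to 200 kb, 60 of 163 at 200 to 400 kb, 18 of 67 at 400 to 700 kb and 9 of 20 at 700 to 1000 kb. Above 1000 kb it scored higher in 10 of 12 pairs (83.3%, 55.2 to 95.3%), with a median difference of 0.23. Scores were low in long domains in general. The median was 0.868 for parents above 1000 kb and 0.897 for other domains of that length, against 1.28 and 1.27 at 200 to 400 kb. At 400 to 700 kb the medians were 1.31 for 54 parents and 1.18 for 552 other domains. Parents had the lower median at 100 to 200 kb, with 1.17 for 23 parents and 1.23 for 1214 other domains. The same held at 700 to 1000 kb, with 1.02 for 16 parents and 1.15 for 167 other domains.

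The 5 highest scoring parents spanned 330 to 760 kb. The 760 kb parent on chromosome 9 described above scored 1.84. Those that followed lay on chromosome 18, at 29730001 to 30140000 (1.83), and on chromosome 10, at 92645001 to 93020000 (1.82). The last were on chromosome 4, at 139945001 to 140295000 (1.82), and on chromosome 6, at 112025001 to 112355000 (1.81). Each scored above each of its direct children, whose scores ran from 0.974 to 1.63. No held domain in the list scored above 1.79, so this order follows from the choice of the highest scores. The 3 lowest scores belonged to parents on chromosome 2 at 44225001 to 45195000 (0.495), on chromosome 15 at 73560001 to 74210000 (0.573) and on chromosome 6 at 128025001 to 129775000 (0.594). Each scored below each of its direct children, an order that the choice of the lowest scores favours. The chromosome 2 parent held children of 345 and 495 kb that scored 1.07 and 1.12, which cover most of it on either side of a 105 kb gap.

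**Figure D2:**
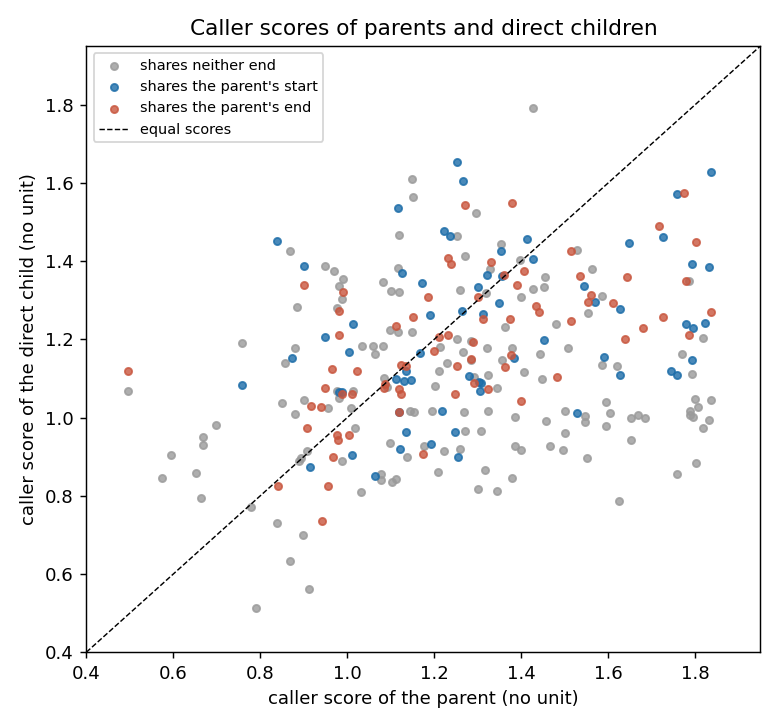
Each point is 1 parent and direct child pair, with the parent's caller score on the horizontal axis and the child's on the vertical axis, coloured by the end shared within 10 kb. Of 286 points, 101 lie above the dashed line of equal scores, and those with parent scores below 0.7 lie above it. A low parent score leaves more room above the line than below it.

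The caller also gives 2 variance scores and 2 sign scores for each domain, for an upper and a lower part that the file header names but does not define. Both variance scores were nearly always lower in the child. The upper one was higher in the child in 10 of 286 pairs (3.50%) and the lower one in 21 (7.34%). Variance scores rose with length over all domains, and children are shorter, so length was compared too. Among domains of 100 to 200 kb, the median upper variance score was 0.0464 for 130 held domains and 0.0613 for 1088 that were neither. At 200 to 400 kb the medians were 0.0894 for 60 held domains and 0.0879 for 995 others, and at 400 to 700 kb they were 0.109 for 23 held domains and 0.141 for 530 others. For the upper score, the held domains had the lower median in each length class but 200 to 400 kb, although the classes above 700 kb had only 3 and 2 of them. The lower score is not given by length here, and lengths were not matched within a class.

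The sign scores followed the side on which the child met its parent. Among children that shared the parent's start, 43 of 65 (66.2%, 54.0 to 76.5%) had a higher upper sign score than the parent and 19 of 65 (29.2%, 19.6 to 41.2%) a higher lower sign score. Among those that shared the end the order was opposite, with 16 of 73 (21.9%, 13.97 to 32.7%) higher in the upper and 52 of 73 (71.2%, 60.0 to 80.3%) in the lower score. The median differences, child minus parent, were 0.02 upper and -0.09 lower at a shared start, and -0.06 upper and 0.04 lower at a shared end. In these groups the score that was higher in the child was thus the upper one at a shared start and the lower one at a shared end. Children that shared neither end had medians of -0.02 and -0.04.

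**Figure D3:**
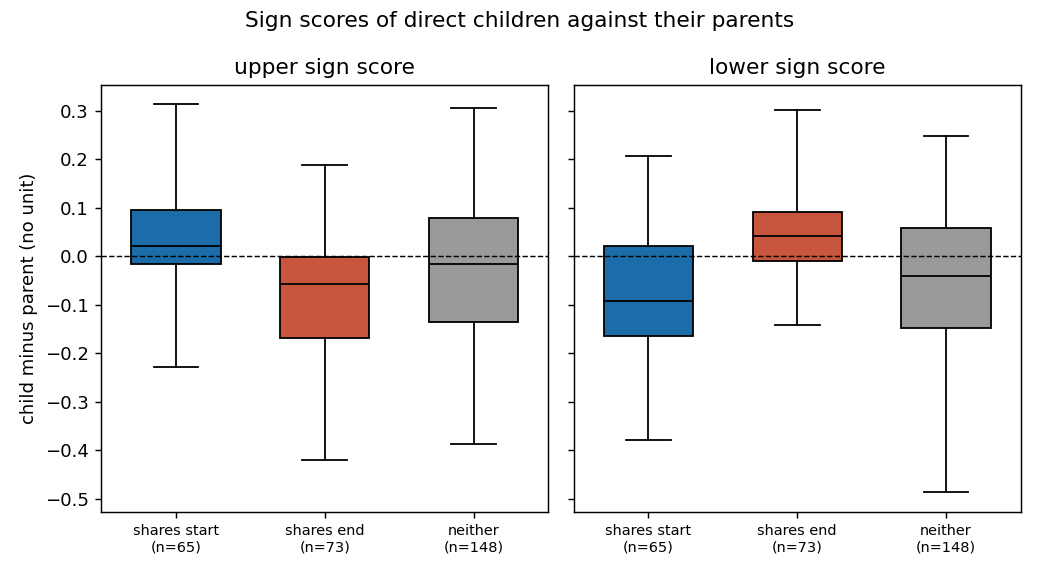
Boxes show the quartiles and median, and whiskers the full range, of the child's sign score minus the parent's, for 65 children sharing the parent's start, 73 sharing its end and 148 sharing neither. The upper score (left) has its positive median at a shared start, 0.02, and the lower score (right) at a shared end, 0.04.

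Loops at the corner of the parent were about as frequent as in the list as a whole. A corner loop has its anchor centres within 50 kb of the start and the end of the domain, and 24.2% of all 3751 autosomal domains had one. Among parents 62 of 242 (25.6%, 20.5 to 31.5%) had one, and among direct children 62 of 286 (21.7%, 17.3 to 26.8%). Both shares are near the background. Within 10 kb, 9.09% of parents and 12.2% of direct children had a loop, against 13.2% of all autosomal domains, so the parents' order against the background changed with the tolerance. Direct children were below it at both. By length, 48 of 138 parents at 200 to 400 kb had a corner loop (34.8%, 27.4 to 43.0%), against 283 of 1048 domains that held none (27.0%, 24.4 to 29.8%). At 400 to 700 kb it was 7 of 54 parents (12.96%, 6.42 to 24.4%) against 132 of 552 (23.9%, 20.5 to 27.6%). The intervals overlap in both classes.

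**Figure D4:**
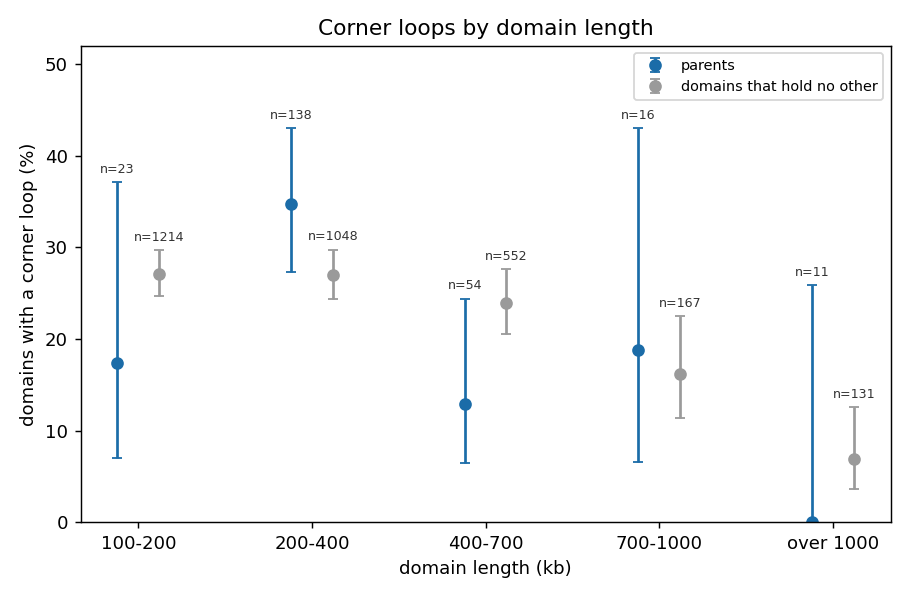
Points give the share of domains with a corner loop, in percent, by domain length class, for parents (blue) and domains that hold no other (grey), with 95% Wilson intervals and the number of domains above each. Parents range from 34.8% at 200 to 400 kb to 0% above 1000 kb, and the intervals of both sets overlap in each class.

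Loops were listed at both levels for some parents. Of 242 parents, 35 (14.5%) had a loop at their own corner alone, 29 (11.98%) at the corner of a direct child alone, 27 (11.2%) at both and 151 (62.4%) at neither. The 27 include parents for which the same loop was counted at both corners, as given below. Median parent scores in these groups were 1.54, 1.20, 1.38 and 1.19. The caller's score may itself count corner contacts, so the order of scores is no independent reading. Loops of any kind within the parent, from one end to the other with 50 kb to spare, were listed for 97 parents (40.1%, 34.1 to 46.4%), against 26.9% of all autosomal domains. The gap was widest at 200 to 400 kb, with 68 of 138 parents (49.3%, 41.1 to 57.5%) and 305 of 1048 domains that held none (29.1%, 26.4 to 31.9%). At 400 to 700 kb the shares were 27.8% and 29.5%. The count for parents takes in loops at the corners of their children, among them those of the 29 parents named above. Domains that hold none have no such corners, so the measure is not alike for parents and other domains. The part of this in the gap was not tested.

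In each pair where parent and child had loops of their own, these loops met at a common anchor. Of the 31 pairs with a corner loop for both, 7 used the same loop, which can happen because the farther ends of those pairs lay 50 to 65 kb apart. The other 24 pairs, in 20 parents, had different loops, taken as the one with the most contacts for each domain. In 24 of 24 an anchor of the parent's loop and the corresponding anchor of the child's had centres within 10 kb of each other. The centres coincided in 8, lay 2.5 to 7.5 kb apart in 11 and 10 kb apart, in neighbouring bins, in 5. In 11 of these pairs the nearer ends of the domains themselves lay more than 10 kb apart, by up to 50 kb, and the loops still met within 10 kb. The tolerance would have allowed wider gaps, though the ends of each such pair were already within 50 kb, so some closeness comes with the choice of pairs. Whether anchors lie as close for domains that are not nested but have ends as near was not tested.

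Contacts can be compared between loops called at the same pixel size, as in 13 of the 24 pairs. The child's loop, which is shorter, had more observed contacts in 11 of 13, with a median of 115 against 89 for the parent's. Its enrichment, the observed contacts over those expected from the surrounding donut, was lower in 10 of 13, with a median of 2.31-fold against 2.62-fold. For all 24 pairs the 95% Poisson intervals of the parent's and child's enrichment were apart in 1, so at this depth most pairs do not differ beyond counting error. Among all corner loops called at 10 kb pixels, the 57 loops of parents had a median of 93 contacts, 2.58-fold enrichment and a 280 kb span. The 47 loops of held domains had 111 contacts, 2.28-fold and 150 kb, and the 666 loops of domains that were neither had 88 contacts, 2.54-fold and 215 kb.

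The 5 parents with the most contacts at both levels show the layout. The 345 kb parent on chromosome 4 (183850001 to 184195000) had a loop of 330 kb with 97 contacts, 2.62-fold over expectation (95% Poisson interval 2.13 to 3.20). Its 180 kb child at 184000001 to 184180000 had a loop with 214 contacts (2.92-fold, 2.55 to 3.34) and a score of 1.79, the highest of any held domain, against 1.43 for the parent. On chromosome 18 the 280 kb parent (29125001 to 29405000) and its 135 kb child looped from the same 10 kb anchor, 29130001 to 29140000, with 138 contacts (2.30-fold) and 165 (2.16-fold). On chromosome 10 the 285 kb parent (86010001 to 86295000) and its 175 kb child ended together and shared the anchor 86290001 to 86300000, with 136 contacts (3.35-fold) and 111 (2.86-fold).

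In 4 parents the parent and both children had loops, so that 3 loops joined the ends and the seam between the children. On chromosome 1 the 245 kb parent (23295001 to 23540000) had a loop from 23300001 to 23520000 with 95 contacts (2.44-fold, 1.98 to 2.99). Its first child had one from 23300001 to 23430000 with 126 contacts (2.18-fold, 1.82 to 2.60). Its second child had one from 23420001 to 23515000 with 68 contacts in a 5 kb pixel (2.80-fold, 2.18 to 3.55). Both child loops met in the bin at 23420001. On chromosome 17 the 235 kb parent (46730001 to 46965000) had 147 contacts at its corner (2.60-fold, 2.19 to 3.05), and its children of 130 and 85 kb had 64 (2.70-fold) and 68 (3.10-fold), both in 5 kb pixels. The other 2 were a 265 kb parent on chromosome 3 (141020001 to 141285000) and a 330 kb parent on chromosome 7 (25270001 to 25600000), with 56 and 104 contacts at their own corners.

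Parents lay more often in bins of positive compartment score than the list as a whole. The score has 1 value per 1 Mb bin, longer than most parents, and no source used here says which sign is which compartment. The midpoint of 175 of 242 parents (72.3%, 66.4 to 77.6%) was in a positive bin, against 64.7% of all autosomal domains. On the 16 chromosomes whose scores form blocks (without 4, 5, 11, 13, 14 and 22) it was 144 of 194 (74.2%, 67.6 to 79.9%), against 64.8%. Within the length class of 200 to 400 kb the shares were 78.3% of 138 parents (70.7 to 84.3%) and 64.8% of 1048 domains that held none (61.8 to 67.6%). In every other length class with parents their share was also the higher, but the intervals overlapped. At 400 to 700 kb it was 64.8% of 54 parents (51.5 to 76.2%) against 55.8% of 552 domains (51.6 to 59.9%). Parents made up 7.21% of domains in positive bins and 5.06% in negative bins. Domains of all kinds were also denser in positive bins, with 1.76 per bin against 0.979 in negative ones, and the part of this in the difference was not tested. Parents in negative bins were longer than those in positive bins, with a median of 375 kb against 305 kb. This was not particular to parents. Among domains that held none, the share in positive bins was 70.4% at 100 to 200 kb, 55.8% at 400 to 700 kb and 29.0% above 1000 kb. End sharing was close in both, at 101 of 213 pairs (47.4%) in positive and 37 of 73 (50.7%) in negative bins, as was the share of higher scoring children (35.7 and 34.2%). Of 93 parents that reached into more than 1 bin, 19 (20.4%) touched both signs, against 20.3% of 1038 domains that were neither. The bin of the child's midpoint had the other sign in 6 of 286 pairs.

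Parents gathered on a few chromosomes. Chromosomes 1 (39), 10 (32), 6 (28) and 17 (19) held 118 of the 242 (48.8%) and 30.6% of the autosomal domains. Parents made up 12.5% of domains on chromosome 10 (9.03 to 17.2%), 11.05% on chromosome 17 (7.19 to 16.6%), 9.33% on chromosome 6 and 9.26% on chromosome 1. At the other end were chromosome 2 with 8 of 269 (2.97%, 1.51 to 5.76%), chromosome 22 with 1 of 40 and chromosome 21 with 0 of 30. Chromosomes 1, 6, 10 and 17 also had the most domains per scored Mb, held domains included (1.78 to 2.15). Their median contacts per loop were 79 to 83.5, against 68.5 on chromosome 2, over loops of both pixel sizes. On chromosomes 13, 14 and 15 the median contacts per loop were 81.5 to 85. Parents made up 5.31 to 7.86% of their domains, with intervals that overlap those of chromosomes 1, 6, 10 and 17. Chromosomes 13, 14 and 15 had 0.371 to 0.494 listed loops per scored Mb, against 0.770 to 0.85 on chromosomes 1, 6, 10 and 17. Across 22 autosomes the share of parents and domains per Mb had a Pearson correlation of 0.72 (Spearman 0.52). Held domains count among the domains per Mb, so nesting raises both measures and this correlation is partly built in. Across the 21 autosomes with loops, the share of parents and the median contacts per loop had a Pearson correlation of 0.51 (Spearman 0.47). These medians mix loops of both pixel sizes and cover listed loops only, so they are a rough reading of depth. The chromosomes share 1 map and its depth. The part of domain density and depth in the share of parents was not tested.

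**Figure D5:**
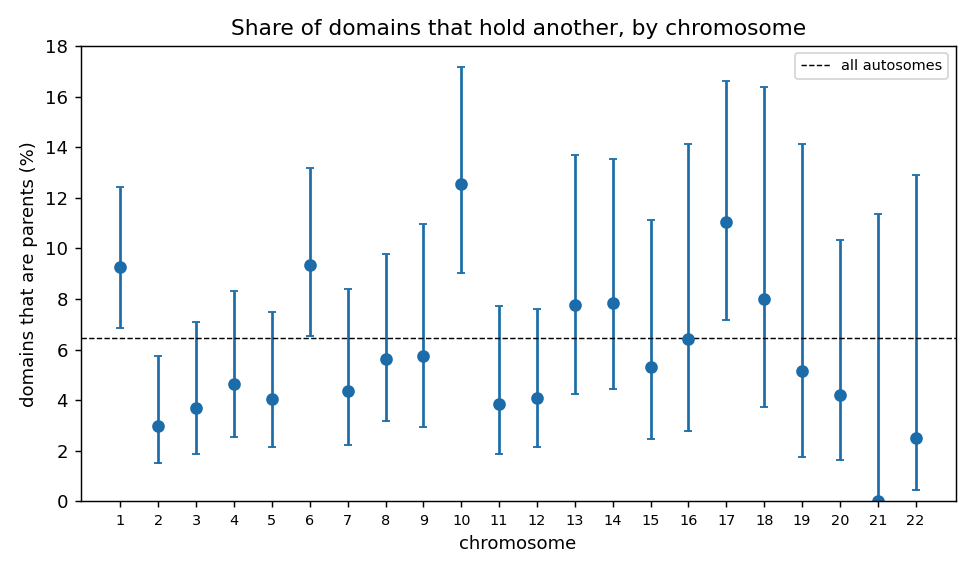
Points give the percent of each autosome's domains that are parents, with 95% Wilson intervals, and the dashed line the 6.45% of all autosomes. Chromosomes 1, 6, 10 and 17 lie highest, from 9.26 to 12.5%.

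The other measures were close between these 4 chromosomes and the rest. End sharing was 47.5% of 141 pairs there and 49.0% of 145 elsewhere, and 36.2 and 34.5% of children scored above the parent. Corner loops were listed for 28.0% of 118 and 23.4% of 124 parents, and median lengths were 312.5 and 320 kb. Of 229 outermost parents on a chromosome with another, 86 had another outermost parent within 1 Mb. A neighbouring, not nested, domain abutted an end within 10 kb for 49 parents (20.2%, 15.7 to 25.8%), near the 17.6% of all autosomal domains.

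At the edge of the rule, 47 pairs held a child whose end coincided with the parent's, and 31 pairs of domains overlapped without either holding the other. In 10 of these 31 the shorter domain reached out by 5 kb, 1 bin, and in 7 of the 10 the longer domain held no other and so was not a parent. The first by chromosome order was a 285 kb domain on chromosome 1 (89945001 to 90230000, score 1.01), whose overlapping neighbour began 5 kb before it (89940001 to 90075000, 0.923). Within an overhang of 10 kb there were 8 longer domains that held no other, with a median score of 1.23 (range 1.01 to 1.40). The 45 parents of the 47 coinciding pairs had a median of 1.25.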

How the data were processed

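The 2 in situ Hi-C libraries of HEK293T cells were described by 3 tables, each of both libraries together. Per the submitters' processing notes the build was hg19 and the tools included BWA 0.7.8, FastQC 0.11.7 and Picard. The domain caller, the compartment method and the way replicates were combined are stated in no source used here. The authors deposited a compartment score per 1 Mb bin and caller scores per domain on 5 kb bins. Per the file headers, the loop table (HiCCUPS, 5 and 10 kb, per the deposited file's name) gives the observed count of contacts, the contacts expected from the surrounding donut (a signal on the same scale) and q-values, which were not used. Enrichment is the deposited count divided by the donut expectation.

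Nesting, offsets and corner loops were computed with Python 3.11.15 and pandas 2.3.3, and tested on simulated data. Positions count from 1. Regions were named by rule: the 5 parents holding most domains, the 5 longest, 5 highest and 3 lowest scoring, 5 with most contacts in their own and a child's loop, 5 longest with 3 levels, and the edge of the rule. Other regions were singled out after their values were seen. Members, lists and settings were chosen with earlier results of these data known. The planned counts of genes and motifs were not run, since the reference used here is of another build, so no gene or sequence is named.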

Additional observations from a re-analysis of the deposited data

How the results depend on the processing

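No paired analysis was possible because the tables hold 1 group and no column for either library, so no replicate could be left out either. The number of parents was 242 and stayed between 218 and 250 with strict containment, with an overhang of up to 10 kb or with chromosome X. It was 157 when parent and child both had to score 1 or more, since fewer domains then remain. The share of direct children with a shared end, 48.3% within 10 kb, was 16.4% at 0 kb, 76.6% within 25 kb and 90.6% within 50 kb, which follows from the tolerance, and 38.4% for parents of 400 kb or more, where the cause was not tested. Corner loops within 10 kb were listed for 9.09% of parents and 12.2% of direct children, a fall set by the tolerance. The other alternatives for corner loops, the child's score, the compartment sign and the median length stayed within the 95% interval of the reported value. The total contacts of the map are unknown here, so the effect of depth on which loops were listed was not tested.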
